A study of Arabidopsis thaliana with 8 samples.

Results

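The genes described here are the cyclins, cyclin-dependent kinases (CDKs), CDK inhibitors and anaphase-promoting complex activators that set whether a plant cell divides or repeats DNA synthesis without division. They were chosen as a list of identifiers from the literature on the Arabidopsis cell cycle, with no measured value used, and number 45 of the 33602 gene models counted. The choice was nevertheless made with earlier results of these data known. They were sorted by known phase of action into 18 mitotic genes, 16 genes of G1 and S phase and 11 endocycle genes. The endocycle genes are CDK inhibitors and anaphase-promoting complex activators, and their part in the endocycle of these tissues was not tested. All 45 members were found in the RefSeq annotation.

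RNA was sequenced from epidermis and from mesophyll cut by laser microdissection out of cotyledons in sectioned Arabidopsis seeds. Each tissue had 4 libraries, and all 8 came from untreated wild-type Col-0 plants in the labels. The study's results name the torpedo stage for these embryos, whereas its methods name the linear stage. Per its methods a replicate pooled sections from several siliques of a single plant and replicates were taken on separate dates, but no label ties a replicate number to a plant or a date. The methods also give a lower average RNA integrity for epidermis than for mesophyll, and its part in the levels was not tested. The libraries held 27676412 to 36685627 counted read pairs, so that 3 pairs, the limit that a count of 0 allows in a library, corresponded to 0.0818 to 0.108 CPM, the unit of counts scaled to a common library total. The kit carried no molecular identifiers, so this limit covers counting error only. Levels are CPM scaled by the TMM method, which corrects library totals for composition. Levels of different genes are compared only after division by the length of the counted gene model in kilobases. A fold change is the log2 ratio of epidermis to mesophyll, so that a positive value means a higher level in epidermis. Each member is given with its locus identifier where it is first described, and cyclin and CDK genes are often called by that identifier afterwards.

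Passage through the plant cell cycle depends on CDKs bound to cyclins. D-type cyclins with the A-type CDK inactivate the retinoblastoma-related protein RBR1 and free E2F factors to start DNA synthesis, whereas B-type cyclins and the plant-specific CDKB kinases act around mitosis. KRP and SIAMESE-type inhibitors bind CDK complexes, and CCS52A proteins direct the anaphase-promoting complex to destroy mitotic cyclins, and these factors together favour the endocycle, in which cells become polyploid. Epidermal cells of leaves and sepals are a classic site of endocycles, while cells of the growing embryo mostly divide.

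Summed markers of epidermis and of mesophyll separated the tissues. Summed CPM of 8 epidermis markers was 3467 to 6222 in epidermis and 276 to 731 in mesophyll (exact two-sided permutation test, p = 0.0286, the smallest that 4 against 4 libraries allow). Summed CPM of 7 mesophyll markers was 9754 to 14500 in epidermis and 16950 to 18490 in mesophyll (exact permutation p = 0.0286). RBCS1A was the most abundant of them. Taken singly, 7 of the 8 epidermis markers were higher in every epidermis library, beside 5.5% of all genes tested. Of the 7 mesophyll markers 3 were higher in every mesophyll library, beside 4.51%. Their median log2 fold change was -0.45, beside 3.11 for the epidermis markers. The study describes its epidermis data as enriched for that tissue rather than strictly specific, and proposes contamination by endosperm. Of the markers of other seed tissues, the endosperm sums separated the tissues, whereas the seed coat and procambium sums overlapped. The 14 endosperm markers summed to 248 to 347 CPM in epidermis and 30.9 to 81.0 CPM in mesophyll (exact permutation p = 0.0286), with MYB115 and PHE1 at 0 in every library. Taken singly, 4 of the 7 tested were higher in every epidermis library, beside 5.5% of all genes tested, and 1 had a negative fold change. SUC5, the most abundant, alone passed edgeR's quasi-likelihood test (adjusted p = 0.0268), beside 0.981% of all genes called higher in epidermis. The 14 seed coat markers summed to 16.7 to 59.8 CPM in epidermis and 8.65 to 18.7 CPM in mesophyll (exact permutation p = 0.0571), with TT16 at 0. Only MUM4 and NARS1 of this list were tested, and both were higher in every epidermis library. NARS1 passed edgeR's quasi-likelihood test (adjusted p = 0.0189), at means of 14.1 CPM in epidermis and 0.0169 CPM in mesophyll. The 7 procambium markers summed to 12.7 to 152 CPM in epidermis and 123 to 248 CPM in mesophyll (exact permutation p = 0.114), with none at 0 throughout. The study reports ATML1, PDF2, MYB118, ZOU and NARS1 of these lists as higher in epidermis in the same libraries. The p of the epidermis, endosperm and seed coat sums is thus not independent of earlier results. The part of endosperm, seed coat and procambium in the levels of the members was not tested. In bulk samples fewer cells of a type and less RNA per cell cannot be told apart.

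Transcripts of nearly the whole machinery were present in both tissues. Of the 45 members, 43 had 1 CPM or more in 4 or more of the 8 libraries, which was the filter for testing. CYCD7;1 (AT5G02110), a D-type cyclin known from stomatal guard cell precursors, had no pair in any library. SIM, the founding SIAMESE inhibitor, was too rare to be tested. The order of the levels was alike in the tissues, with Pearson r = 0.93 and Spearman rho = 0.94 across the 45 members on log2 mean levels per kilobase. The genes are not independent replicates, and all values of a tissue share the same libraries.

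**Figure D1:**
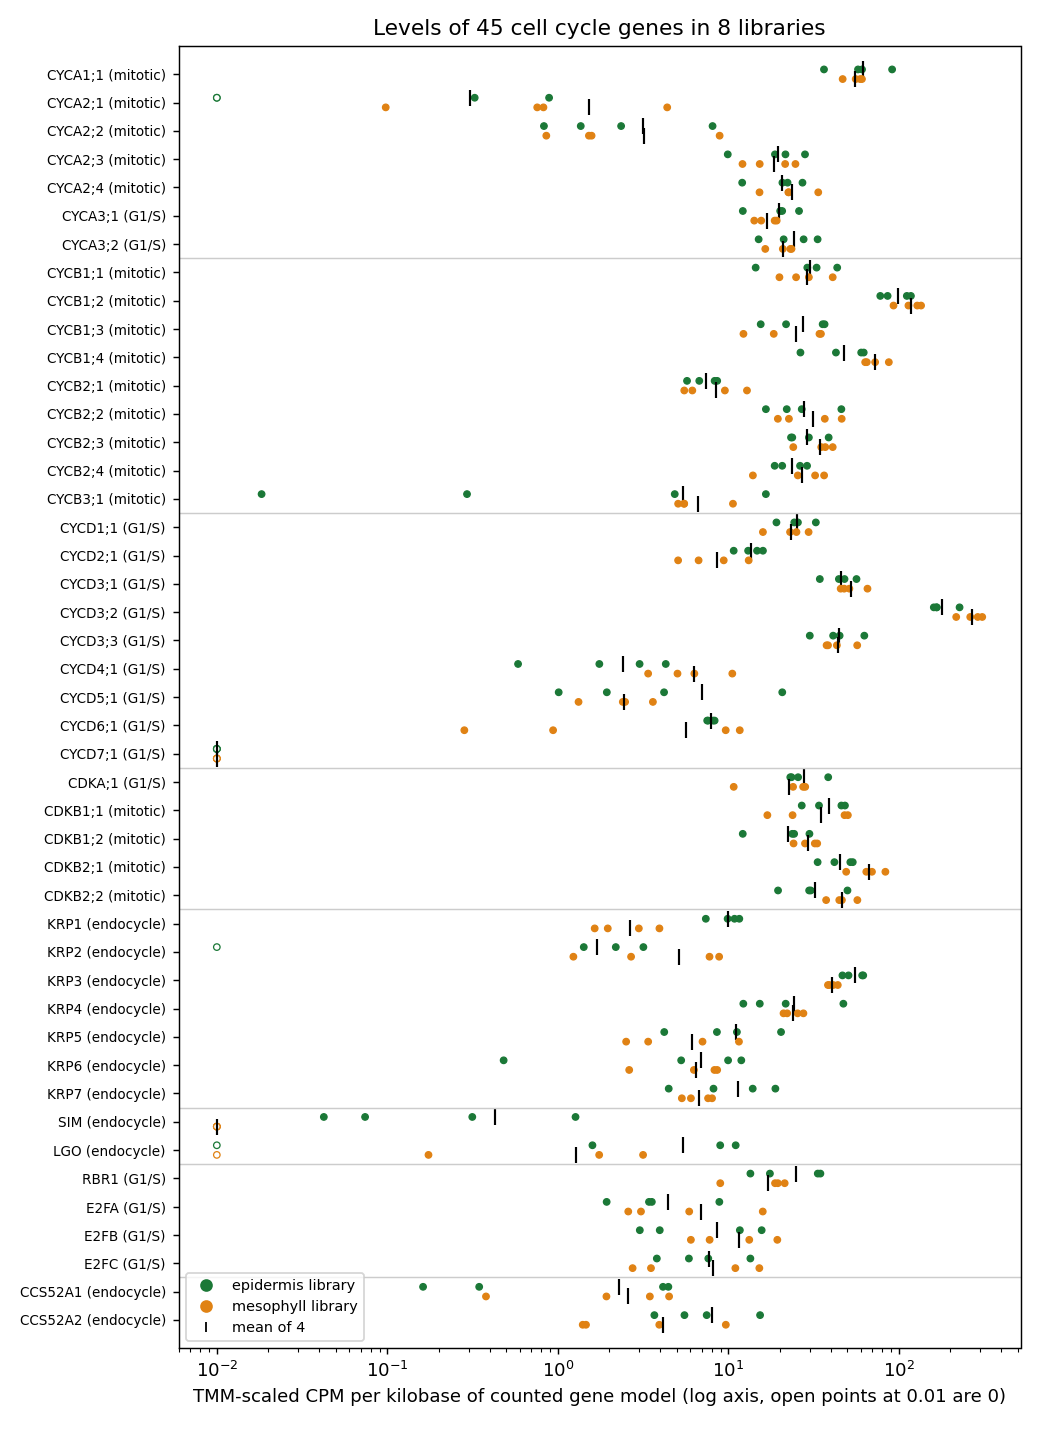
TMM-scaled CPM per kilobase (horizontal log axis) of all 45 members, with each library as a point, green for epidermis and orange for mesophyll, black bars for the mean of 4 libraries and open points for 0. The D-type cyclin gene AT5G67260 lies highest in both tissues, at a mean of 180 in epidermis and 270 in mesophyll, and the lowest members have libraries at 0.

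The comparison of epidermis with mesophyll asked whether any of these genes differs between the outer cell layer and the inner tissue. In edgeR's quasi-likelihood test with Benjamini-Hochberg adjustment over 15794 genes, 171 genes (1.08%) passed an adjusted p of 0.05, of which 155 (0.981%) were higher in epidermis and 16 (0.101%) higher in mesophyll. None of the 43 members tested passed. At an unadjusted p under 0.05 there were 3, a D-type cyclin gene, a CDKB gene and KRP1, against 11.8% of all genes tested. The likelihood ratio test called 0 members against 5.2% of all genes, limma-voom 0 against 3.15% and the bias-adjusted quasi-likelihood fit 0 against 4.01%. Without the replicate block 0 members were called against 2.29% of all genes, and 0 against 4.39% when the likelihood ratio test was run without it. DESeq2 called 1 member, the D-type cyclin gene AT5G67260, against 8.36% of all genes. The smallest adjusted p of a member was 0.162. Fold changes of the members had a median of -0.01, with 20 above and 23 below 0, and the median over all genes tested was -0.04.

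A p that misses the threshold does not show equal levels, and the intervals set how much was measured. The 95% interval of the fold change lay within 2-fold in either direction for 12 members, all of them among the 31 with a mean of 10 CPM or more. The median standard error was 0.32 on the log2 scale for those 31 and 1.26 for the 12 rarer members, beside 0.37 and 1.33 for all genes tested in the same ranges. Among the abundant members 20 of 31 varied more among epidermis libraries than among mesophyll libraries in the SD of log2 CPM (64.5%), beside 67.8% of all genes tested at that level.

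**Figure D2:**
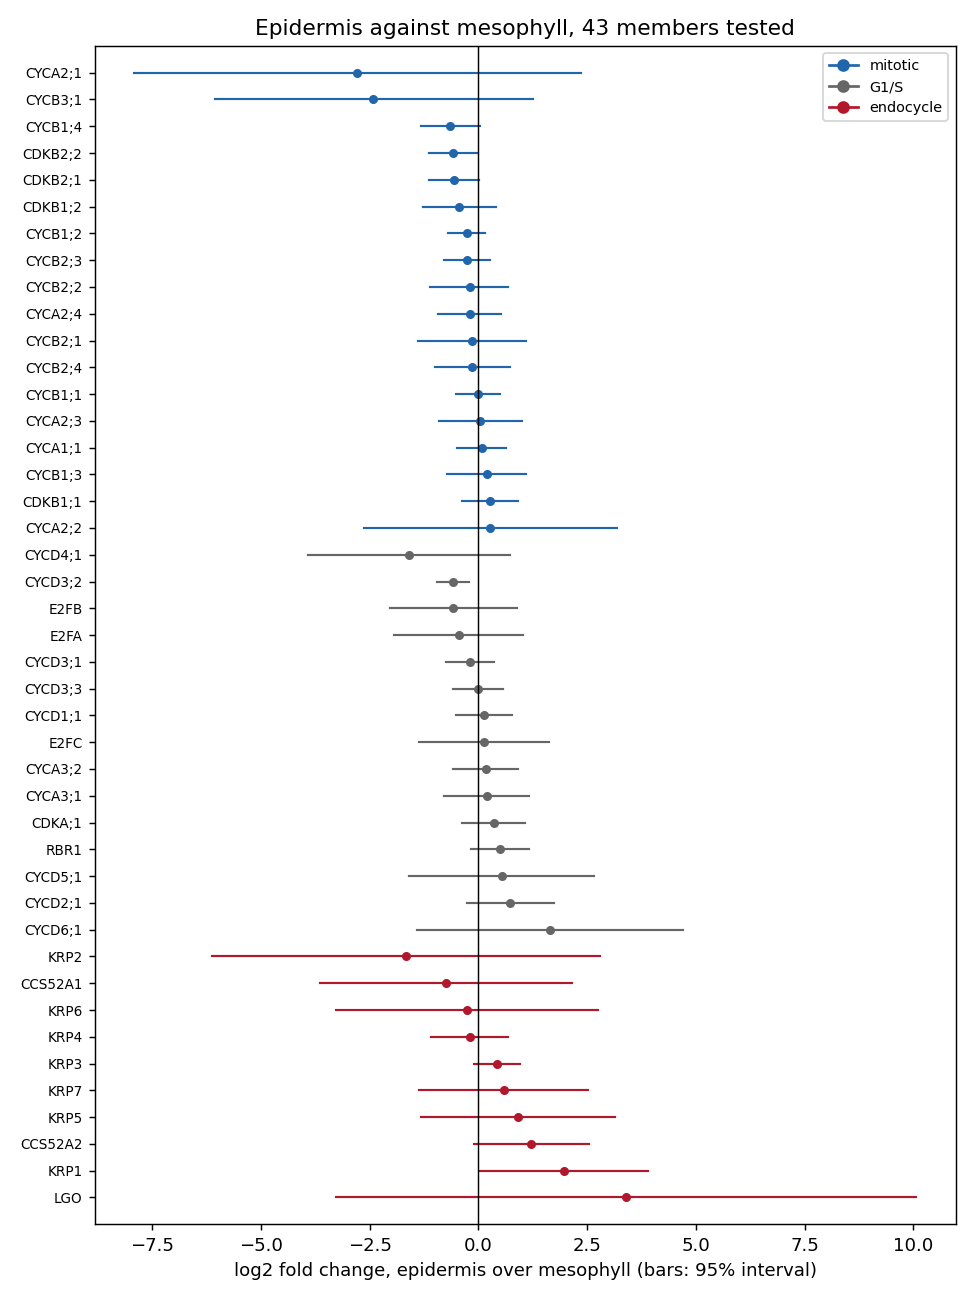
Log2 fold change of epidermis over mesophyll (horizontal axis) for the 43 members tested, with bars for the 95% interval, in blue for mitotic, grey for G1 and S, and red for endocycle genes. Of the mitotic genes 13 of 18 lie below 0 and of the endocycle genes 6 of 10 lie above 0, and nearly all intervals cross 0.

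The fold changes were also counted by phase, with no test of a difference between phases. Mitotic genes had 13 negative and 5 positive fold changes with a median of -0.20, where 53.1% of all genes tested were negative and 46.9% positive. Genes of G1 and S phase had 9 positive and 6 negative values with a median of 0.13, and endocycle genes 6 positive and 4 negative with a median of 0.50. Over 22 alternative fits the mitotic median lay between -0.34 and -0.11 and the endocycle median between 0.26 and 0.68. These are counts and medians of values that individually did not pass the test.

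Cyclin B genes encode the partners of CDKs at entry into mitosis. Of the 9 members, 8 had a negative fold change and 1 a positive value, with a median of -0.20, and the number of negative values ranged from 6 to 9 over the alternative fits. CYCB1;2 (AT5G06150) was the most abundant of them in all 8 libraries, at 98.2 per kilobase in epidermis and 118 in mesophyll, or 33.1% ± 6.28 and 33.5% ± 3.32 (SD, n = 4) of the summed cyclin B level. Its CPM was 131, 198, 187 and 144 in epidermis replicates 1 to 4 and 216, 227, 191 and 156 in mesophyll replicates 1 to 4. The tissues overlapped, with a log2 fold change of -0.27 ± 0.18 (SE, adjusted p = 0.681, edgeR quasi-likelihood test). The gene lies on chromosome 5 at 1859279 to 1861703 on the minus strand, with 5 exons in RefSeq's TAIR10.1 annotation.

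CYCB1;4 (AT2G26760), a close relative on chromosome 2 at 11401118 to 11403433 on the plus strand with 5 exons, was the only cyclin B gene whose tissues did not overlap. It had 42.6, 68.8, 96.8 and 100.1 CPM in the epidermis libraries and 141, 102, 117 and 104 CPM in the mesophyll libraries. Every mesophyll library lay above every epidermis library, but epidermis replicate 4 and mesophyll replicate 2 were nearly level, and without TMM scaling the tissues overlapped. The log2 fold change was -0.65 ± 0.29, with a 95% interval of -1.32 to 0.03 (edgeR adjusted p = 0.453).

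CYCB2;3 (AT1G20610) had 71.1, 43.5, 42.8 and 54.4 CPM in epidermis and 67.9, 64.3, 44.1 and 75.1 CPM in mesophyll, with overlapping tissues and a log2 fold change of -0.25 ± 0.23. It lies on chromosome 1 at 7134659 to 7137828 on the minus strand and has 12 exons. In RefSeq 13.7% of the 100-base windows of its longest transcript also occur in another gene. The authors dropped reads that matched a second model as well as the first, so its count is uncertain. CYCB1;1 (AT4G37490), the gene most used as a reporter of the G2 to M transition, was near the middle of the family at 30.0 per kilobase in epidermis and 28.9 in mesophyll, with a log2 fold change of 0 to 2 decimals and an interval of -0.51 to 0.51. The remaining B-type cyclins CYCB1;3 (AT3G11520), CYCB2;1 (AT2G17620), CYCB2;2 (AT4G35620) and CYCB2;4 (AT1G76310) had fold changes of 0.19 ± 0.39, -0.15 ± 0.54, -0.20 ± 0.39 and -0.14 ± 0.38. The first held the only positive value of the family, and the tissues of all 4 overlapped. AT2G17620 was the lowest of the 4, at 9.23 to 13.9 CPM in epidermis and 8.89 to 20.7 CPM in mesophyll. The range of AT3G11520 was 23.7 to 56.1 CPM in epidermis and 18.8 to 53.4 CPM in mesophyll, and that of AT4G35620 was 26.0 to 72.1 and 30.6 to 72.5 CPM. In AT1G76310 the mesophyll range of 18.8 to 49.1 CPM took in the whole epidermis range of 25.2 to 39.0 CPM.

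CYCB3;1 (AT1G16330), known for a role in the meiotic spindle, was the least even cyclin B gene. It had 9.44, 0.0356, 32.3 and 0.571 CPM in epidermis and 10.7, 9.89, 20.7 and 10.7 CPM in mesophyll. The 4 epidermis libraries thus held both the lowest and the highest value, and the lowest was a single read pair. The log2 fold change was -2.41 ± 1.59 with the replicate block and -0.30 without it, and it lay between -4.01 and 0.13 when a replicate number or a library was left out. It was 0.13 without epidermis replicate 2, 0.10 without epidermis replicate 4 and 0.03 without mesophyll replicate 3.

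The upstream sequence of 3 genes is shown because B-type cyclins are known targets of MYB3R factors, which bind the mitosis-specific activator (MSA) element. The windows are the 250 bases before the annotated gene start in the RefSeq TAIR10.1 assembly, written 5′ to 3′ on the strand of the gene, with matches to the MSA core AACGG on either strand in capitals. The windows are chr5:1861704-1861953 on the minus strand for AT5G06150, chr2:11400868-11401117 on the plus strand for AT2G26760, and chr2:9978091-9978340 on the minus strand for KRP1. The first belongs to the most abundant cyclin B gene, the second to the cyclin B gene whose tissues did not overlap, and the third to an inhibitor described further on.
AT5G06150: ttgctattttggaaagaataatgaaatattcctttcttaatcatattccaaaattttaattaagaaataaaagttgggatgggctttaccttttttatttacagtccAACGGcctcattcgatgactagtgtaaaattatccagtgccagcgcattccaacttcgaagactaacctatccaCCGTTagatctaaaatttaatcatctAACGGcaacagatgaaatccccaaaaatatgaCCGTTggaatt
AT2G26760: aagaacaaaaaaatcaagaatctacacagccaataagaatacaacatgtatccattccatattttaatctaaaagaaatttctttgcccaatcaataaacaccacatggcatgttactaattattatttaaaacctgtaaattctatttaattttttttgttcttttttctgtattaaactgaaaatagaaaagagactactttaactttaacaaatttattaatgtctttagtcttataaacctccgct
KRP1: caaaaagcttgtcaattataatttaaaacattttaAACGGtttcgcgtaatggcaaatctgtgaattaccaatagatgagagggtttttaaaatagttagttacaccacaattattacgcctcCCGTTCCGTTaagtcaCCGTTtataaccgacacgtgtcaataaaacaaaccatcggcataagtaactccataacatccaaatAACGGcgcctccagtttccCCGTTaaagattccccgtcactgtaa

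The window of AT5G06150 had 4 matches, that of AT2G26760 had 0 and that of KRP1 had 6. The core was found in the windows of 9 of 18 mitotic genes, 4 of 16 genes of G1 and S phase and 4 of 11 endocycle genes (36.4%), beside 20.6% of the windows of 27443 protein-coding genes. At least 2 matches were present in 8 of 18 mitotic genes (44.4%) and 3 of 11 endocycle genes (27.3%), beside 3.62% of all windows. An E2F site, searched on both strands as TTTCCCGC, TTTGGCGC, TTTCGCGC or TTTGCCGC, was found in 2 of the 45 members, RBR1 and the D-type cyclin gene AT3G50070, and in 1.41% of all windows. In no member did a match to the MSA core overlap a match to an E2F site. A match describes letters in a window and says nothing of binding.

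**Figure D3:**
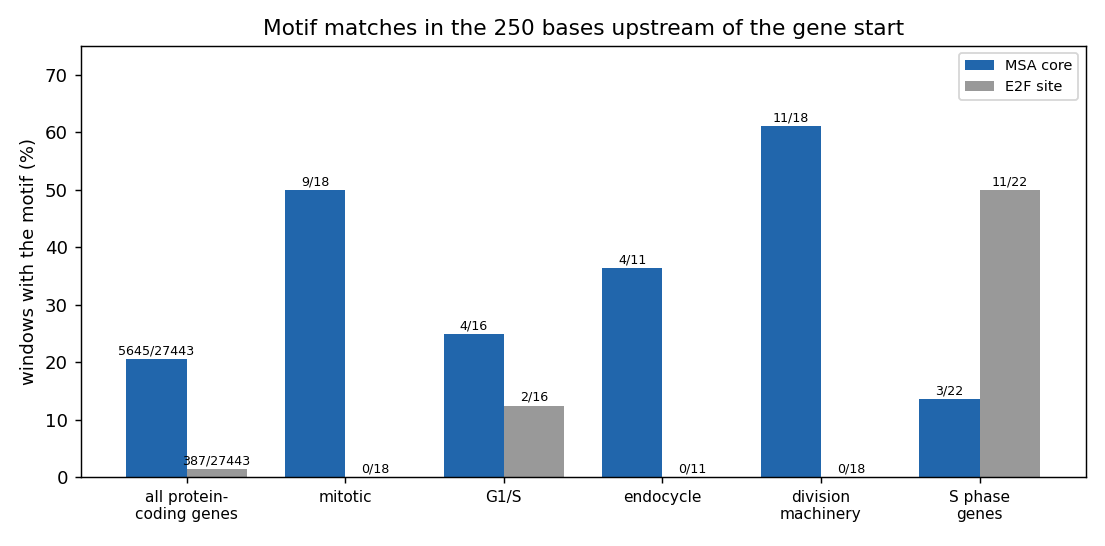
Percentage of 250-base upstream windows with at least 1 match (vertical axis, from 0) to the MSA core in blue or an E2F site in grey, by gene group, with the counts above the bars. The MSA core is found in 9 of 18 mitotic and 11 of 18 division machinery windows and the E2F site in 11 of 22 S phase gene windows, beside 20.6% and 1.41% of all windows.

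The CDKB kinases are the mitotic CDKs of plants. CDKB2;1 (AT1G76540) had 56.1, 71.8, 69.5 and 44.7 CPM in epidermis and 112, 65.7, 93.1 and 86.3 CPM in mesophyll, so that the tissues overlapped through mesophyll replicate 2. Its log2 fold change was -0.56 ± 0.25, with an interval of -1.14 to 0.02 (edgeR adjusted p = 0.447). Its locus is on chromosome 1 at 28720328 to 28722550 on the minus strand. CDKB2;2 (AT1G20930) had 60.7, 37.0, 36.2 and 23.8 CPM in epidermis and 69.4, 54.3, 56.3 and 45.5 CPM in mesophyll.

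Epidermis replicate 1 was the library in which this second gene overlapped with mesophyll. Its log2 fold change was -0.58 ± 0.25, with an interval of -1.14 to -0.02 before adjustment and an adjusted p of 0.407 in edgeR's quasi-likelihood test. The gene lies on chromosome 1 at 7292389 to 7294746 on the minus strand and has 8 exons. In RefSeq 7.19% of the windows of its longest transcript also lie in an overlapping gene on the other strand, and the kit does not mark strand. CDKB1;1 (AT3G54180), whose loss is known to raise ploidy, had 41.0, 58.2, 55.4 and 32.5 CPM in epidermis and 20.4, 60.5, 57.8 and 28.7 CPM in mesophyll, with mesophyll spanning the epidermis range and a fold change of 0.26 ± 0.28. The remaining kinase genes, CDKB1;2 (AT2G38620) and CDKA;1 (AT3G48750), had fold changes of -0.44 ± 0.36 and 0.35 ± 0.32. The former ranged from 14.3 to 35.1 CPM in epidermis and from 28.4 to 39.0 CPM in mesophyll. The A-type kinase gene, whose product acts through the whole cycle, ranged from 32.7 to 54.6 CPM in epidermis and from 15.2 to 40.03 CPM in mesophyll, and its highest library was epidermis replicate 4. Per kilobase, the B2-type kinase gene AT1G76540 was above the A-type kinase gene AT3G48750 in 3 of 4 epidermis and 4 of 4 mesophyll libraries.

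Cyclin A genes act from S phase to early mitosis. CYCA1;1 (AT1G44110) was the highest in all 8 libraries and made up 40.7% ± 10.7 of the summed cyclin A level in epidermis and 39.8% ± 1.48 in mesophyll (SD, n = 4). It had 58.9, 93.3, 98.4 and 148 CPM in epidermis and 90.4, 75.8, 98.3 and 96.0 CPM in mesophyll. The gene lies on chromosome 1 at 16774765 to 16777352 on the minus strand and has 8 exons. The epidermis libraries lay on both sides of the mesophyll range, and the fold change was 0.08 ± 0.24 with an interval of -0.48 to 0.63.

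CYCA2;4 (AT1G80370), of the group that restrains the endocycle together with B1-type CDKs, had 33.0, 35.4, 43.2 and 19.2 CPM in epidermis and 24.2, 35.7, 53.5 and 35.9 CPM in mesophyll. CYCA3;2 (AT1G47210), of the S phase group, had 22.4, 41.1, 49.6 and 31.4 CPM in epidermis and 34.9, 24.5, 34.4 and 31.0 CPM in mesophyll. Both overlapped between tissues, with fold changes of -0.19 ± 0.32 and 0.17 ± 0.33.

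CYCA2;1 (AT5G25380) was the rarest tested cyclin A gene, with 0, 0.428, 1.17 and 0 CPM in epidermis and 5.76, 1.08, 0.995 and 0.129 CPM in mesophyll. Epidermis replicates 1 and 4 had no pair, and 162 of the 233 mesophyll pairs were in replicate 1. Its log2 fold change of -2.78 ± 2.23 was the largest negative value of the members in the edgeR fit, and lay between -4.43 and -1.37 when a replicate number or a library was left out, with -1.37 without replicate number 1. The other cyclin A genes, CYCA2;2 (AT5G11300), CYCA2;3 (AT1G15570) and CYCA3;1 (AT5G43080), had fold changes of 0.28, 0.05 and 0.19 with overlapping tissues. AT5G11300 was rare, with 14.1 CPM in epidermis replicate 3 and 15.5 CPM in mesophyll replicate 4 against at most 4.10 CPM elsewhere. AT1G15570 ranged from 18.7 to 53.1 CPM in epidermis and 22.8 to 46.7 CPM in mesophyll. AT5G43080 ranged from 12.99 to 27.8 CPM in epidermis, which took in its whole mesophyll range of 15.2 to 20.5 CPM.

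D-type cyclins link hormone and nutrient signals to the start of the cycle, and the CYCD3 genes are known to keep leaf cells dividing. CYCD3;2 (AT5G67260), on chromosome 5 at 26836139 to 26839597 on the plus strand with 6 exons, was the most abundant of the 45 members in both tissues. It made up 54.8% ± 5.11 of the summed cyclin D level in epidermis and 65.2% ± 5.11 in mesophyll, and exceeded its paralog AT4G34160 per kilobase by 2.96 to 6.60 times in epidermis and 4.24 to 6.07 times in mesophyll. It had 236, 236, 321 and 227 CPM in epidermis and 411, 307, 436 and 371 CPM in mesophyll.

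Only epidermis replicate 3, which exceeded mesophyll replicate 2, made the tissues of this gene overlap. Its log2 fold change of -0.58 ± 0.16 had an interval of -0.94 to -0.22 before adjustment, an unadjusted p of 0.00572 and an adjusted p of 0.162 in edgeR's quasi-likelihood test. It lay between -0.71 and -0.51 over 22 alternatives, with adjusted p from 0.0106 in DESeq2 to 0.382. The gene overlaps a neighbour on the other strand in RefSeq, with no 100-base window of its own spliced sequence in the neighbour's transcripts.

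CYCD3;1 (AT4G34160) had 73.3, 92.9, 56.6 and 79.1 CPM in epidermis and 78.7, 84.4, 108 and 75.1 CPM in mesophyll. CYCD3;3 (AT3G50070) had 62.3, 41.6, 86.9 and 57.1 CPM in epidermis and 53.2, 52.2, 60.0 and 79.0 CPM in mesophyll. Neither gene separated the tissues, with fold changes of -0.20 ± 0.24 and -0.01 ± 0.25 and intervals of -0.75 to 0.35 and -0.58 to 0.56. Within the CYCD3 group AT5G67260 took 66.3% ± 2.58 of the level in epidermis and 73.5% ± 2.73 in mesophyll (SD, n = 4).

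The other D-type cyclins were lower and less even. CYCD1;1 (AT1G70210) and CYCD2;1 (AT2G22490) had fold changes of 0.13 ± 0.28 and 0.74 ± 0.44. The former ranged from 38.7 to 65.9 CPM in epidermis and 32.2 to 59.7 CPM in mesophyll. The latter ranged from 18.4 to 27.4 CPM in epidermis and 8.71 to 22.6 CPM in mesophyll, and mesophyll replicate 2 was the single library of that tissue within the epidermis range. CYCD4;1 (AT5G65420), CYCD5;1 (AT4G37630) and CYCD6;1 (AT4G03270) were at 2.41, 6.97 and 7.90 per kilobase in epidermis and 6.32, 2.46 and 5.64 in mesophyll. Their fold changes were -1.59 ± 1.01, 0.54 ± 0.92 and 1.64 ± 1.33. The epidermis mean of AT4G37630 rested on replicate 4, at 33.2 CPM against 1.62 to 6.74 CPM in the other epidermis libraries and 2.12 to 5.79 CPM in mesophyll. AT4G03270, a cyclin gene of formative divisions in the root, was even in epidermis at 6.83 to 7.56 CPM, whereas its mesophyll libraries spanned 0.257 to 10.6 CPM. The longest annotated transcript of AT5G65420 holds a run of 23 A or T bases, the longest of any member. That transcript has 1916 bases and the counted model 1322, so the run may lie outside it. No effect of this run on its count was tested.

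**Figure D4:**
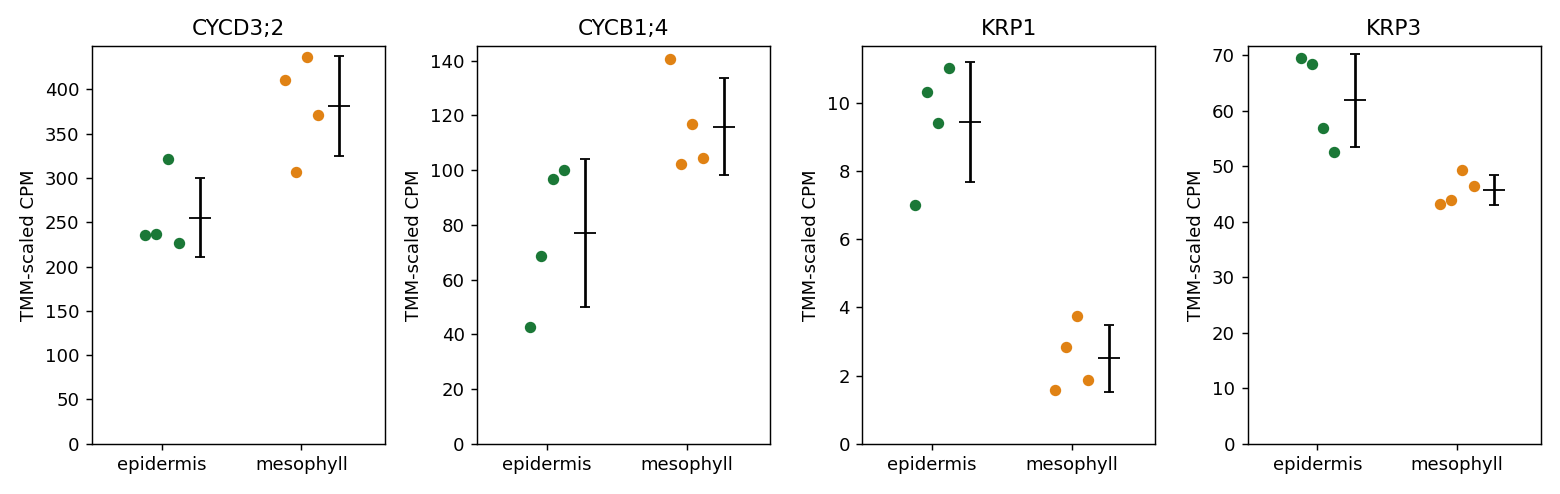
TMM-scaled CPM (vertical axes from 0) of the D-type cyclin gene AT5G67260, the B-type cyclin gene AT2G26760, KRP1 and KRP3 in the 4 epidermis libraries (green) and 4 mesophyll libraries (orange), with the mean and SD in black. KRP1 lies at 7.01 to 11.02 in epidermis and 1.56 to 3.75 in mesophyll, while the gap between the tissues is narrow for the B-type cyclin gene and KRP3 and the tissues of the D-type cyclin gene overlap.

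KRP proteins bind and inhibit complexes of the A-type CDK with D-type cyclins, and their level can tip cells from mitosis to the endocycle. KRP3 (AT5G48820) was the most abundant inhibitor, at rank 4 of all 45 members in epidermis with 55.1 per kilobase and rank 9 in mesophyll with 40.7, and made up 46.2% ± 7.05 and 44.3% ± 1.85 of the summed KRP level. It had 69.5, 68.5, 56.9 and 52.5 CPM in epidermis and 43.1, 43.9, 49.3 and 46.3 CPM in mesophyll. Every epidermis library was above every mesophyll library, by a small margin between epidermis replicate 4 and mesophyll replicate 3, and without TMM scaling the tissues overlapped. The gene lies on chromosome 5 at 19792270 to 19794480 on the minus strand and has 4 exons. The fold change was 0.43 ± 0.23 with an interval of -0.10 to 0.96 (edgeR adjusted p = 0.554).

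KRP1 (AT2G23430), an inhibitor known to be able to move between cells, separated the tissues. It had 7.01, 10.3, 9.41 and 11.02 CPM in epidermis and 1.56, 2.84, 3.75 and 1.87 CPM in mesophyll. The lowest epidermis library was well above the highest mesophyll library, also without TMM scaling. Its share of the summed KRP level was 8.34% ± 1.69 in epidermis and 2.84% ± 1.01 in mesophyll, where the KRP3 level per kilobase exceeded that of KRP1 by 4.03 to 8.38 times and 11.1 to 23.3 times.

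KRP1 lies on chromosome 2 at 9976590 to 9978090 on the minus strand and has 4 exons. Its log2 fold change was 1.98 ± 0.84, with an unadjusted p of 0.0454 and an adjusted p of 0.408 in edgeR's quasi-likelihood test. Over its 21 alternatives the fold change lay between 1.74 and 2.19, and the adjusted p between 0.0711 and 0.685. Summed endosperm markers were higher in the same 4 libraries, as given above, and their part in the KRP1 level was not tested.

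KRP4 (AT2G32710), the next in the family by level, had 30.6, 17.3, 21.6 and 66.7 CPM in epidermis and 29.7, 38.9, 31.2 and 36.0 CPM in mesophyll. The locus of KRP4 is on chromosome 2 at 13873362 to 13876737 on the plus strand. Epidermis replicate 4 lay above the mesophyll range, replicate 1 within it and replicates 2 and 3 below it, so that equal mean levels of 24.1 per kilobase went with a wider spread in epidermis. In RefSeq 36.1% of the windows of KRP4's longest transcript lie in an overlapping gene on the other strand, the largest share of any member. That transcript has 2391 bases and the counted model 1411, so the shared part may lie outside the counted sequence. KRP7 (AT1G49620) had 10.97, 14.9, 6.46 and 3.53 CPM in epidermis and 4.76, 4.21, 6.002 and 6.33 CPM in mesophyll, and KRP2 (AT3G50630) had 3.11, 1.39, 2.14 and 0 CPM in epidermis and 1.21, 2.63, 7.59 and 8.65 CPM in mesophyll.

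KRP2 and KRP7 had fold changes of -1.67 ± 1.94 and 0.58 ± 0.84, each smaller than its SE, so neither sign was established. In neither gene did the tissues separate. The value of KRP2 lay between -2.90 and -0.51 when a replicate number or a library was left out. KRP5 (AT3G24810) and KRP6 (AT3G19150) had fold changes of 0.92 ± 0.97 and -0.26 ± 1.31. KRP5 ranged from 3.87 to 18.8 CPM in epidermis and 2.32 to 10.6 CPM in mesophyll, and KRP6 from 0.437 to 10.8 CPM in epidermis and 2.38 to 7.81 CPM in mesophyll. Of the 7 KRP genes 4 had positive and 3 negative values, with 0 called.

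The SIAMESE-type inhibitors act in the polyploid cells of the shoot epidermis. SIM (AT5G04470), needed for endocycles in trichomes, had 0.0587, 0.249, 1.01 and 0.0336 CPM in epidermis, or 2, 7, 31 and 1 pairs, and no pair in any mesophyll library. The gene has a single exon on chromosome 5 at 1266625 to 1267416 on the minus strand. Of the 41 epidermis pairs 75.6% came from replicate 3. The pooled epidermis level was 13.8-fold above a limit of 3 pairs over the mesophyll group. This ratio covers only the counting error of the mesophyll group. It leaves out the counting error of the 41 epidermis pairs and the spread between libraries.

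LGO (AT3G10525), which drives the formation of giant cells in the sepal epidermis, had 6.01, 7.41, 1.07 and 0 CPM in epidermis and 1.17, 0.117, 0 and 2.12 CPM in mesophyll. The gene has a single exon on chromosome 3 at 3281306 to 3282131 on the minus strand. Replicates 1 and 2 of epidermis were the highest, but a library of each tissue had no pair. The fold change was 3.40 ± 2.90, with an interval of -3.26 to 10.07 (edgeR adjusted p = 0.757). It was 2.08 without the replicate block and lay between 1.46, without epidermis replicate 2, and 4.92, without replicate number 4. In RefSeq 28.1% of the windows of LGO's longest transcript, of 826 bases against 671 counted, also lie in a gene on the other strand. Part of the windows of SIM do too, and reads there cannot be assigned by strand.

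CCS52A proteins activate the anaphase-promoting complex outside mitosis and are needed for the endocycle. CCS52A2 (AT4G11920) had 6.98, 14.2, 10.5 and 29.1 CPM in epidermis and 2.77, 7.46, 2.65 and 18.3 CPM in mesophyll. Its locus is on chromosome 4 at 7160243 to 7163427 on the minus strand. The tissues overlapped, and replicate 4 was the highest library in both. The fold change was 1.22 ± 0.58 with an interval of -0.10 to 2.54 (edgeR adjusted p = 0.478). It was 0.44 without epidermis replicate 4 and 1.82 without mesophyll replicate 4.

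CCS52A1 (AT4G22910), on chromosome 4 at 12012408 to 12016012 on the plus strand, had 0.645, 8.30, 7.73 and 0.302 CPM in epidermis and 8.39, 3.60, 6.47 and 0.707 CPM in mesophyll. It was near 0 in epidermis replicates 1 and 4 and mesophyll replicate 4, and its fold change of -0.74 ± 1.26 had no firm sign. Per kilobase CCS52A2 was above CCS52A1 in 4 of 4 epidermis and 2 of 4 mesophyll libraries.

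RBR1 (AT3G12280) holds E2F factors inactive until it is phosphorylated. Its gene lies on chromosome 3 at 3913349 to 3919359 on the minus strand and has 18 exons. It had 48.0, 119, 62.5 and 124 CPM in epidermis and 69.5, 76.2, 31.9 and 66.9 CPM in mesophyll. Epidermis replicates 2 and 4 were above all mesophyll libraries and replicates 1 and 3 within their range, for a fold change of 0.50 ± 0.29 with an interval of -0.17 to 1.16.

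E2FB (AT5G22220), an activator of the cell cycle, had 5.93, 30.7, 7.76 and 22.9 CPM in epidermis and 37.95, 15.2, 11.8 and 26.0 CPM in mesophyll. E2FC (AT1G47870), known mainly as a repressor, had 11.9, 20.9, 9.12 and 5.91 CPM in epidermis and 4.26, 17.1, 23.6 and 5.47 CPM in mesophyll. Both overlapped, with fold changes of -0.57 ± 0.64 and 0.13 ± 0.65, and E2FA (AT2G36010) had -0.45 ± 0.64. E2FA, also an activator, ranged from 3.74 to 17.1 CPM in epidermis and 5.01 to 30.8 CPM in mesophyll, and replicate 3 was its highest library in both tissues. RBR1 was above E2FB per kilobase in all 8 libraries, by 2.13 to 4.45 times in epidermis and 1.01 to 2.76 times in mesophyll.

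Among the tested members 3 of 43 had tissues that did not overlap, beside 10% of all genes tested. KRP1 and KRP3 had epidermis higher, beside 5.5% of all genes, and the B-type cyclin gene AT2G26760 had mesophyll higher, beside 4.51%. Without TMM scaling the count was 1, KRP1, beside 10.1% of all genes, and with reads counted singly it was also KRP1 alone, beside 10.6%. At 3 against 3 libraries, where ranges separate more easily, it was 9 of 43 without number 1, beside 19.2% of all genes, and 6 without number 2, beside 17.5%. It was 6 without number 3 and 4 without number 4, beside 18.7% of all genes in either case. Leaving out libraries cannot make separate ranges overlap, so these counts could not fall below 3.

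The second comparison set mitotic against endocycle genes within each tissue. Of the 11 endocycle genes 7 were KRP inhibitors. The level of a group in a library was the median of log2(level per kilobase + 0.1) over its members. The mitotic median exceeded the endocycle median in all 8 libraries. The difference was 2.07, 1.14, 2.18 and 2.15 in epidermis and 3.30, 3.15, 2.63 and 1.61 in mesophyll, with means of 1.88 ± 0.50 and 2.67 ± 0.77 (SD, n = 4).

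The tissues overlapped in this difference, through mesophyll replicate 4. Between 14 and 17 of the 18 mitotic genes lay above the endocycle median of their library, and 1 to 3 of the 11 endocycle genes above the mitotic median. KRP3 was above the mitotic median in all 8 libraries, joined by KRP4 in epidermis replicate 4 and mesophyll replicate 4 and by KRP5 in epidermis replicate 4. The median of the mitotic group was 4.64 ± 0.26 in epidermis and 4.80 ± 0.25 in mesophyll, and that of the endocycle group 2.76 ± 0.55 and 2.12 ± 0.66. The median of genes of G1 and S phase was 4.01 ± 0.33 and 3.87 ± 0.21.

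Summed levels, a measure added after the medians were seen, weight the abundant members. The mitotic sum per kilobase was 535, 557, 584 and 489 in epidermis and 654, 662, 618 and 590 in mesophyll in order of replicate. The endocycle sum was 137, 149, 113 and 147 in epidermis and 90.3, 97.1, 102 and 110 in mesophyll. The mitotic sum was 3.90, 3.74, 5.18 and 3.34 times the endocycle sum in epidermis and 7.25, 6.82, 6.07 and 5.36 times in mesophyll.

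This ratio, which does not depend on the scaling of a library, did not overlap between the tissues, although epidermis replicate 3 and mesophyll replicate 4 were close. With KRP3 left out the epidermis libraries gave 4.90 to 9.42 and the mesophyll libraries 8.59 to 12.6, and the tissues overlapped. No p is given for these scores, since the members were chosen and weighted by hand.

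**Figure D5:**
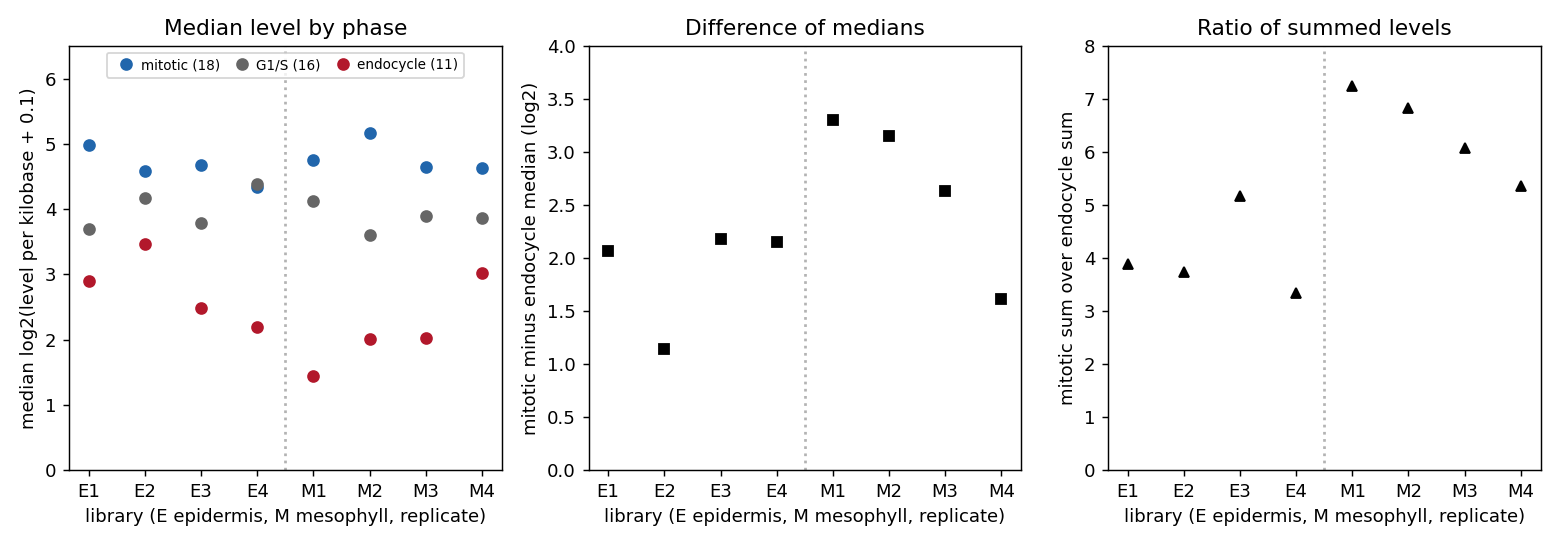
Left, median log2 level per kilobase of mitotic, G1 and S, and endocycle genes in each library (E epidermis, M mesophyll). Middle, mitotic minus endocycle median, at 1.14 to 2.18 in epidermis and 1.61 to 3.30 in mesophyll. Right, ratio of summed levels, at 3.34 to 5.18 in epidermis and 5.36 to 7.25 in mesophyll.

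Other genes of the cycle were read from lists of S phase genes, division machinery and further regulators. Of 22 S phase genes tested, 16 had positive and 6 negative fold changes with a median of 0.23. The S phase genes with the smallest p were CDT1A and ORC1B, both of replication licensing, with CPM of 64.9 ± 9.56 and 19.6 ± 9.70 in epidermis and 36.1 ± 9.84 and 4.65 ± 2.66 in mesophyll (SD, n = 4). Neither overlapped between tissues, at fold changes of 0.88 ± 0.28 and 2.12 ± 0.88, and neither passed edgeR's quasi-likelihood test, at adjusted p of 0.241 and 0.401. They were the 2 of 22 S phase genes without overlap and with epidermis higher, beside 5.5% of all genes tested.

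Of 18 genes of the division machinery, 13 had negative and 5 positive fold changes with a median of -0.24. CDC20.2, an activator of the anaphase-promoting complex in mitosis, had 71.5 ± 18.7 CPM in epidermis and 121 ± 7.41 CPM in mesophyll, and POK1, a kinesin that positions the division plane, had 32.2 ± 10.9 and 53.1 ± 8.54 CPM. Neither overlapped, at fold changes of -0.80 ± 0.21 and -0.77 ± 0.29 and edgeR adjusted p of 0.152 and 0.323. They were the 2 of 18 division genes without overlap and with mesophyll higher, beside 4.51% of all genes tested.

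Of 27 further regulators 24 were tested, with 11 positive and 13 negative fold changes and a median of -0.05. The SIAMESE-related genes SMR3, SMR5 and SMR7 did not pass the filter. In edgeR's quasi-likelihood test 0 genes of these lists were called, beside 1.08% of all genes tested. Unadjusted p in that test was under 0.05 for 2 of 22 S phase genes, 2 of 18 division genes and 0 of 24 further regulators. The share over all genes was 11.8%. DESeq2 called 1 S phase gene and 1 division gene, beside 8.36% of all genes. The likelihood ratio test called 1 division gene, beside 5.2%.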

How the data were processed

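Per the study's methods, the authors trimmed reads, removed ribosomal reads with sortMeRNA, aligned pairs in local mode with Bowtie2 to 33602 TAIR10 representative gene models and counted pairs that matched a single model, with reads of equal second match removed. The submitters' processing notes also name TopHat2. The authors deposited raw counts, in read pairs for each gene model, from unstranded poly(A) libraries of a low-input SMART-Seq v4 kit. Reads with a second match made up 4.44 to 4.98% of reads. No library was a copy of another. Between 27676412 and 36685627 pairs were counted per library.

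Genes at 1 CPM or more in 4 or more of the 8 libraries were scaled by TMM (factors 0.929 to 1.08) and fitted in edgeR 4.0.16 under R 4.3.3 with tissue and replicate number as a block. The block was used because the study's model holds the harvest date, but no label ties a replicate number to a date. The quasi-likelihood F test (legacy form) took Benjamini-Hochberg adjustment over all genes, with calls at an adjusted p of 0.05 or less, and was tested on simulated data. The study used a likelihood ratio test, which was run as an alternative. A standard error was obtained by dividing the absolute fold change by the root of its F value. Across genes, residuals of libraries with the same number correlated at 0.0102, -0.0019, 0.0702 and -0.0102, so the numbers were not shown to pair the samples, and p-values measure the spread between these libraries.

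Levels per kilobase used the length of the counted model given in the files. RefSeq TAIR10.1 gave coordinates, upstream windows and overlapping genes, and 37.5% of 32827 genes had a RefSeq transcript of exactly the counted length, so its gene starts can differ from those of the counted models. Values in every library are given for members called, members whose tissues did not overlap, the 3 members of each class with the highest level per kilobase and the 5 with the largest absolute fold change. Of the other cell cycle lists, up to 4 genes with the smallest p were eligible to be named. Marker lists were epidermis, mesophyll, endosperm, seed coat and procambium. The members, lists and tests were chosen with earlier results of these data known. Alternatives were DESeq2 1.42.0, no block, the likelihood ratio test, a bias-adjusted fit, limma-voom 3.58.1 with quality weights, RLE factors, 2 other filters, reads counted singly, and each replicate number or library left out. Added after the data were seen were the likelihood ratio test with no block, the alternatives for non-overlapping members and for the surrounding lists, and the summed levels. Figures were drawn with matplotlib 3.10.9.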

Additional observations from a re-analysis of the deposited data

Results flagged for a closer look

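A library stood far from the other 3 of its tissue in 8 of 99 groups examined, where chance flags about 1 in 20. For single genes the library was mesophyll replicate 1 for CYCA2;1 at 5.76 CPM, mesophyll replicate 4 for CYCA2;2 at 15.5 CPM, mesophyll replicate 3 for CYCB3;1 at 20.7 CPM, epidermis replicate 3 for CYCD3;2 at 321 CPM, and epidermis replicate 4 for CYCD5;1 at 33.2 CPM and CDKA;1 at 54.6 CPM. Their other libraries lay at 0.129 to 1.08, 1.49 to 2.75, 9.89 to 10.7, 227 to 236, 1.62 to 6.74 and 32.7 to 36.4 CPM in the same order.

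The difference between the mitotic and the endocycle median was 1.14 in epidermis replicate 2 against 2.07 to 2.18 in the other epidermis libraries. Epidermis markers summed to 276 CPM in mesophyll replicate 3 against 676 to 731 CPM in the other mesophyll libraries.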

How the results depend on the processing

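Against 171 genes called in all, 361 were called with no replicate block, 633 with the bias-adjusted fit, 821 with the likelihood ratio test, 694 with that test and no replicate block, 1320 with DESeq2, 497 with limma-voom, 257 with a filter of 10 CPM, and 55 to 264 with a replicate number or a library left out. Members called stayed at 0 in 21 of 22 alternatives, no block included, and were 1 with DESeq2, which also called 1 S phase gene and 1 division gene, while the likelihood ratio test called 1 division gene. Of all genes tested, DESeq2 called 8.36% and the likelihood ratio test 5.2%. Tested members whose tissues did not overlap fell from 3 to 1 without TMM scaling and to 1 with reads counted singly, beside 10.1 and 10.6% of all genes, and were 4 to 9 with a replicate number left out, beside 17.5 to 19.2%.

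The block left no member called either way. Without it CYCB3;1 moved from -2.41 to -0.30 and LGO from 3.40 to 2.08, with -0.57 and 2.08 in the bias-adjusted fit, while CYCD3;3 turned from -0.01 to 0.02 (0.02 also with the likelihood ratio test and no block) and E2FC from 0.13 to -0.08 (-0.08 likewise). Limma-voom gave 0.12 for CYCB3;1, 0.09 for CYCD3;3, -0.18 for E2FC and 0.12 for CCS52A1, and the bias-adjusted fit -0.03 for E2FC. Among members given in every library, signs also turned in some fits with a replicate number or a library left out. These were CYCA1;1 (-0.11 to 0.33), CYCA2;4 (-0.41 to 0.04), CYCA3;2 (-0.03 to 0.43), CYCB3;1 (-4.01 to 0.13), CYCD3;1 (-0.31 to 0.03), CYCD3;3 (-0.19 to 0.18), CDKB1;1 (-0.07 to 0.39), KRP4 (-0.56 to 0.22), E2FB (-1.12 to 0.07), E2FC (-0.49 to 0.62) and CCS52A1 (-1.50 to 0.24). Of the other members, ranges over all alternatives crossed 0 for CYCB1;1, CYCB1;3, CYCB2;1, CYCB2;2 and CYCB2;4, all between -0.65 and 0.62. They also did for CYCA2;2, CYCA2;3, CYCD1;1, CYCD5;1, KRP6 and E2FA, between -1.21 and 1.87. Among members given in every library, the widest ranges with no turn of sign were -4.43 to -1.37 for CYCA2;1, -2.90 to -0.51 for KRP2, 1.46 to 4.92 for LGO and 0.44 to 1.82 for CCS52A2. The causes were not tested. The mitotic minus endocycle difference moved by less than 1 SD under every alternative run. Differences in marker sums kept their direction with a replicate number left out, at 3271 to 4058 CPM for epidermis, -6325 to -4529 CPM for mesophyll and 225 to 243 CPM for endosperm markers, where 3 against 3 libraries cannot go below p = 0.1 in the exact permutation test. With 4 libraries a tissue and 12 tested members under 10 CPM, differences of single rare members were not measurable within 2-fold.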
